A study of Oryza sativa Japonica Group and Oryza sativa Indica Group with 16 samples.

Results

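Germin genes GER1 to GER8 were followed in rice flag leaves through 3 degrees of drought. The members were the probe sets whose single annotated gene has 1 of the names GER1 to GER8 as its symbol or synonym, whether or not it starts with Os, with GER4 taken as LOC4327911 and GER5 as LOC4345763. All 8 genes were found, with 10 probe sets, among the 17905 genes and 57381 probe sets of the array. GER8 has 3 probe sets and the other 7 genes have 1 each.

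Flag leaves of upland rice IRAT109 (japonica, drought-resistant) and of paddy rice ZS97 (indica, drought-sensitive) were collected at the booting stage from plants grown in PVC pipes. Stage D0 was the well-watered state, with a leaf relative water content of 94 to 95%, and D1, D2 and D3 were 83 to 88%, 74 to 78% and 65 to 69% as water was withheld. D0, taken before the drought, is the only watered group of each variety. In a change from D0, water loss cannot be told apart from elapsed time or leaf age. The 8 groups had 2 biological replicates each, 1 Affymetrix rice array per replicate, 16 arrays in all. Each genotype is a single variety, so the comparison of IRAT109 with ZS97 is a comparison of 2 varieties and not of upland and paddy rice as classes. The values are signal intensities on a linear scale, and a difference under the probes in the sequence of 1 variety cannot be told apart from a difference in RNA.

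Germins and germin-like proteins are water-soluble glycoproteins of the cell wall with the barrel fold of the cupin family. Some of them are oxalate oxidases and others act as superoxide dismutases, and both reactions release hydrogen peroxide into the wall, where peroxidases use it to cross-link wall polymers. In rice a tandem cluster of germin-like genes on chromosome 8 is known for its part in resistance to blast and sheath blight. No role beyond that of the family is given for the single members here.

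The genes lie on 3 chromosomes in the RefSeq annotation. GER3, GER2 and GER1 are direct neighbours on chromosome 8 in this order, and GER6 follows after 2 other annotated genes. GER5 is on the same chromosome but 1303 annotated genes farther on. GER4 and GER8 are on chromosome 1, with 3420 annotated genes between them, and GER7 is on chromosome 3. Position is given by chromosome and order only, since the genome build behind the array's design is not given in the sources used here.

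The arrays had alike signal. The trimmed mean intensity was 228.2 to 245.9, the share of probe sets below an intensity of 16 was 27.9 to 29.5%, and replicates correlated at r = 0.9971 to 0.9983 across probe sets. Summed over 13 probe sets of green leaf markers (Rubisco small subunit, Rubisco activase, chlorophyll-binding and protochlorophyllide reductase genes), the signal was 72580 to 73974 in IRAT109 at D0 and 37118 to 37971 at D3, and 77310 to 80286 and 29790 to 29896 in ZS97. The marker signal of green tissue was lower at D3 in both varieties, where 5 of the 13 probe sets were called lower in IRAT109 and 9 in ZS97, against 4.78% and 4.16% of all probe sets. For the mean drought change 2 and 6 were called lower, against 4.07% and 3.54%. In a whole leaf, fewer cells of a type and less RNA per cell cannot be told apart, and the part of this decrease in the germin values was not tested.

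A change was called when limma's moderated test, adjusted by Benjamini-Hochberg across the whole array, gave a p under 0.05 and the difference in log2(intensity + 16) was over 2-fold. The words rose and fell are kept for called changes. Errors of log2 changes are standard errors from the fit over all 16 arrays. The constant of 16 draws the change of dim probe sets towards 0, so a fold on this scale is smaller than the ratio of the intensities.

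Under drought 1 germin gene rose in IRAT109, 3 fell in 1 or both varieties, and the other 4 had no call. For the mean of D1 to D3 against D0, 1 of the 10 probe sets rose in IRAT109 (GER4) and 2 fell (GER6 and GER7), where 2.97% and 4.07% of all probe sets were called in these directions. In ZS97 none rose and 3 fell (GER5, GER6 and GER7), against 3.32% and 3.54% of all probe sets. The same genes were called at each single stage. The background was 2.87%, 2.99% and 3.42% higher and 3.38%, 4.33% and 4.78% lower at D1, D2 and D3 in IRAT109, and 2.97%, 3.73% and 4.16% lower in ZS97. Over the 8 genes the median change was -0.33 in IRAT109 and -0.39 in ZS97, where the median of all probe sets was 0.01 and -0.01. The plot of the signal on each array shows the whole family.

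**Figure D1:**
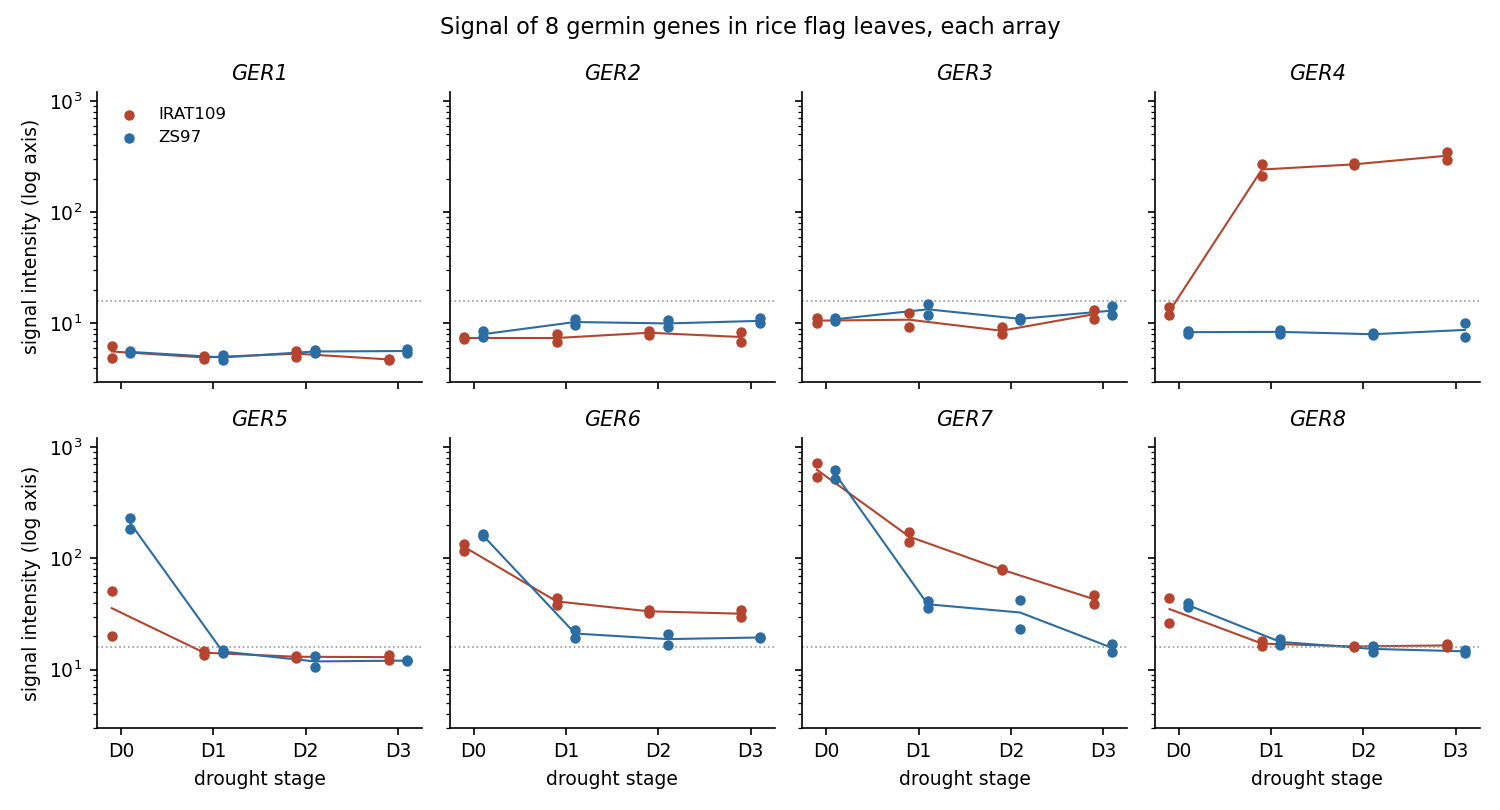
Signal intensity (log axis) of the main probe set of each germin gene at stages D0 to D3. Each point is 1 array, lines join the means of the 2 arrays of a group, and the dotted line marks an intensity of 16. GER4 was above 200 in the droughted IRAT109 leaves and at 14.0 or lower on every other array, while GER5, GER6 and GER7 were highest at D0 in both varieties.

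GER4 was the gene that rose. In IRAT109 its intensity was 11.8 and 14.0 at D0, 212.2 and 270.7 at D1, 263.9 and 273.6 at D2, and 347.9 and 294.5 at D3. The 8 ZS97 arrays gave 8.1 and 8.6 at D0, 8.1 and 8.7 at D1, 8.2 and 7.8 at D2, and 7.5 and 10 at D3. The 6 droughted IRAT109 arrays were all far above the 2 at D0, and those of ZS97 all stayed in the dim range.

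On the log2 scale GER4 rose in IRAT109 by 3.15 ± 0.10 at D1 (adjusted p = 7.26e-11), by 3.30 ± 0.10 at D2 and by 3.54 ± 0.10 at D3. The mean change was 3.33 ± 0.08, 10.1-fold (adjusted p = 2.81e-12). Most of the rise was there at the mildest drought, since D1 held 88.9% of the change at D3. The further differences of 0.15 ± 0.10 from D1 to D2 (adjusted p = 0.543) and 0.24 ± 0.10 from D2 to D3 (adjusted p = 0.191) did not pass the test.

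In ZS97 the mean change of GER4 was 0.00 ± 0.08 with a 95% interval of -0.18 to 0.18 (adjusted p = 0.994). The ZS97 arrays were all below 16, so this interval does not tell an unchanged gene from one that its probes do not read. The difference between the varieties rests on the same dim values. The change in IRAT109 exceeded that in ZS97 by 3.14, 3.32 and 3.52 at D1, D2 and D3, and by 3.33 ± 0.12 for the mean (adjusted p = 1.17e-09). For this test of the difference 3 of the 10 probe sets were called, all towards a higher change in IRAT109, against 1.20% of all probe sets in that direction and 1.87% in the other. At D1 the count was 3, at D2 and D3 it was 2 (GER4 and GER5), against 1.26%, 1.54% and 1.30%. The level of GER4 at D0 differed between the varieties by 0.25 ± 0.10, which did not pass the test (adjusted p = 0.092), and was higher in IRAT109 by 3.39, 3.57 and 3.77 at D1, D2 and D3. GER4 was the 1 probe set called there at D2 and at D3, against 3.30% and 2.94% of all probe sets higher in IRAT109.

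The size of the GER4 change rests on the constant, because the signal at D0 is dim. With a constant of 1 the mean change in IRAT109 was 4.31 and with 64 it was 2.14, called in each case. The ZS97 signal was below 16 on all arrays, where values carry little order.

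**Figure D2:**
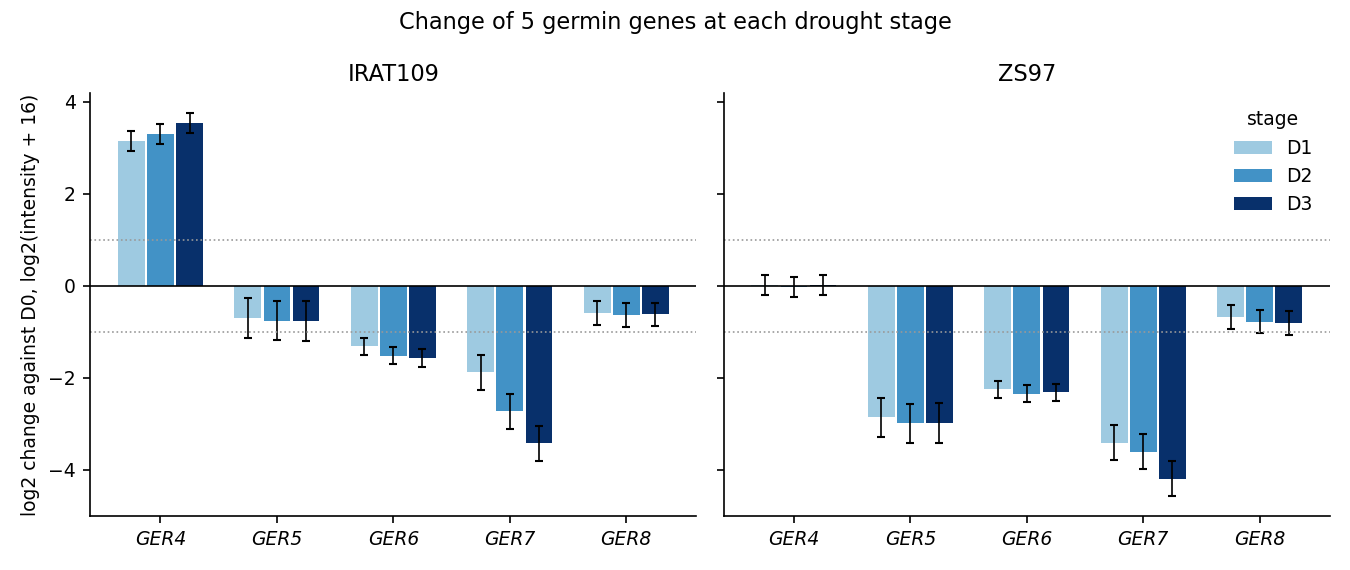
Log2 change from D0 at stages D1 to D3 for the 5 germin genes with an adjusted p under 0.05 in either variety and a main probe set above an intensity of 16. Bars show the change in log2(intensity + 16), error bars the 95% interval of the fit, and dotted lines a 2-fold change. GER4 reached 3.54 in IRAT109 and 0.02 in ZS97 at D3, and GER7 reached -3.43 and -4.20.

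GER7 fell furthest. Its IRAT109 intensity was 536.6 and 711.9 at D0, 174.1 and 138.9 at D1, 78.1 and 80.5 at D2, and 39.2 and 46.7 at D3. Its ZS97 intensity was 512.5 and 626.3 at D0, 41.7 and 35.6 at D1, 41.9 and 23.3 at D2, and 16.9 and 14.4 at D3. In IRAT109 the arrays of each stage lay below all those of the stage before, whereas in ZS97 the arrays of D1 and D2 overlapped.

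The fall at D1 was smaller in IRAT109 than in ZS97. In IRAT109 GER7 fell by 1.89 ± 0.18 at D1 (adjusted p = 1.84e-06), and the changes at D2 and D3 were -2.73 and -3.43, so that D1 held 55% of the change at D3. In ZS97 it fell by 3.42 ± 0.18 at D1 (adjusted p = 7.17e-09), with -3.61 at D2 and -4.20 at D3, and D1 held 81.3%. The ZS97 signal at D3 was near an intensity of 16, which bounds the change there and so this share. The mean change was -2.68 ± 0.14 in IRAT109, 6.43-fold, and -3.74 ± 0.14 in ZS97, 13.4-fold.

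Between stages, GER7 was lower in IRAT109 by 0.85 ± 0.18 from D1 to D2 (adjusted p = 0.0191) and by 0.70 ± 0.18 from D2 to D3 (adjusted p = 0.0223), under 2-fold in both steps. In ZS97 the steps were -0.19 ± 0.18 (adjusted p = 0.657) and -0.59 ± 0.18 (adjusted p = 0.0929). None of the 10 probe sets was called in any step, where the share of all probe sets called in either direction was 0.134% and 0.627% in IRAT109 and 0.716% and 0.228% in ZS97. Nor was any called for a difference between the varieties in a step, against 0.821% and 0.709% of all. The difference between the varieties in the step from D1 to D2, -0.65 ± 0.25, did not pass the test (adjusted p = 0.171), nor did that from D2 to D3, -0.10 ± 0.25 (adjusted p = 0.931).

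The test of the difference itself was called for GER7 at D1, where the change in IRAT109 was 1.53 ± 0.25 above that in ZS97 (adjusted p = 0.000965, 3 of 10 probe sets higher against 1.26% of all). It was 0.88 ± 0.25 at D2 (adjusted p = 0.0229) and 0.77 ± 0.25 at D3 (adjusted p = 0.0442), both under 2-fold, and 1.06 ± 0.20 for the mean (adjusted p = 0.00197). The call for the mean was lost at 0.86 without replicate 1 of IRAT109 D0, at 0.92 without replicate 2 of ZS97 D0 and at 0.97 without replicate 2 of ZS97 D2. It was also lost at 0.59 with a constant of 64. At D2 the difference was over 2-fold and called without replicate 2 of IRAT109 D0 (1.07), replicate 1 of ZS97 D0 (1.02) or replicate 1 of ZS97 D2 (1.16).

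As levels, GER7 did not differ detectably between the varieties at D0 (0.12 ± 0.18, 95% interval -0.26 to 0.50, adjusted p = 0.687). At D1 IRAT109 was higher by 1.65 ± 0.18, 3.15-fold (adjusted p = 8.49e-06, with GER4 2 of 10 probe sets higher against 3.28% of all). At D2 and D3 it was higher by 0.998 and 0.90, just under 2-fold, and the arrays of the varieties did not overlap at D1, D2 or D3. Without replicate 1 of ZS97 D2, the higher of that pair, the difference at D2 was 1.28 and was called, and without replicate 1 of IRAT109 D2 it was 1.02 and was called.

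GER6, from the chromosome 8 cluster, fell in both varieties and showed most of its fall at the first stage. In IRAT109 its intensity was 117.0 and 135.8 at D0, 38.0 and 44.0 at D1, 32.4 and 34.4 at D2, and 29.5 and 34.1 at D3. Its ZS97 intensity was 164.7 and 157.2 at D0, 19.3 and 22.9 at D1, 21.0 and 16.6 at D2, and 19.8 and 19.1 at D3. All D0 arrays were above all droughted arrays of their variety, and every droughted IRAT109 array was above every droughted ZS97 array.

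At D1 the change of GER6 was -1.32 ± 0.09 in IRAT109 (adjusted p = 6.9e-08) and -2.26 ± 0.09 in ZS97 (adjusted p = 4.96e-10), which were 83.9% and 97.2% of the changes at D3. The mean change was -1.47 ± 0.07 in IRAT109, 2.78-fold (adjusted p = 1.86e-09), and -2.31 ± 0.07 in ZS97, 4.95-fold (adjusted p = 2.36e-11). With a constant of 64 the IRAT109 mean was -0.94 and no longer over 2-fold.

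The varieties crossed in GER6. At D0 IRAT109 was lower by 0.32 ± 0.09 (adjusted p = 0.0159), and at D1, D2 and D3 it was higher by 0.62, 0.51 and 0.43 (adjusted p = 0.000108, 0.000455 and 0.0018), each under 2-fold. The change in IRAT109 was 0.94, 0.82 and 0.75 above that in ZS97 at the 3 stages and 0.84 ± 0.10 for the mean (adjusted p = 5.49e-05), also under 2-fold. At D1 this difference came to 2-fold without replicate 2 of IRAT109 D0 (1.03), replicate 1 of IRAT109 D1 (1.01) or replicate 2 of ZS97 D1 (1.01), after quantile normalization (1.02) and with a constant of 1 (1.28).

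GER5 was highest in well-watered ZS97 leaves, where it fell under drought. Its intensity in ZS97 was 185.1 and 229.3 at D0, 14.9 and 14.2 at D1, 10.5 and 13.2 at D2, and 12.1 and 12.0 at D3. In IRAT109 it was 20.2 and 51.1 at D0, 13.6 and 14.8 at D1, 12.8 and 13.3 at D2, and 13.6 and 12.3 at D3. The 2 ZS97 D0 arrays were above all others, the 2 IRAT109 D0 arrays came next but lay far apart, and the droughted arrays of both varieties lay below an intensity of 16.

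In ZS97 the change of GER5 was -2.86 ± 0.20 at D1 (adjusted p = 1.16e-07), -2.997 at D2 and -2.99 at D3, with a mean change of -2.95 ± 0.16, 7.72-fold (adjusted p = 6.19e-09). In IRAT109 the mean change was -0.75 ± 0.16 (adjusted p = 0.00205), under 2-fold. This value turned on the pair of D0 arrays: it was -1.19 and called without replicate 1, the lower of them, and -0.30 without replicate 2. The signal at D1 to D3 was dim on every array, which bounds how large a change could be read.

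At D0 GER5 was lower in IRAT109 than in ZS97 by 2.17 ± 0.20, 4.51-fold (adjusted p = 2.11e-06), and it was the 1 probe set of the family called there, against 1.80% of all probe sets lower in IRAT109. At D1, D2 and D3 the differences in level were -0.02, 0.06 and 0.05, each ± 0.20, with 95% intervals within -0.44 to 0.49. The difference between the varieties in the change was 2.16, 2.23 and 2.22 at D1, D2 and D3, and 2.20 ± 0.23 for the mean (adjusted p = 1.47e-05). The D0 arrays enter both this value and the difference in level at D0, so they are not independent of each other.

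**Figure D3:**
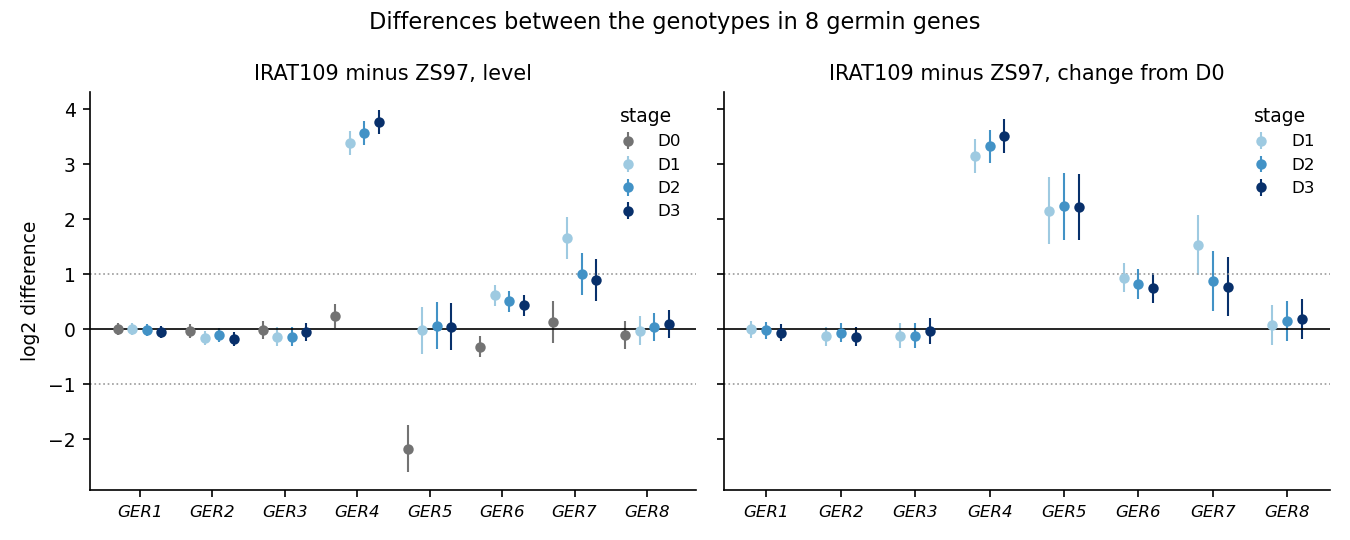
Differences between IRAT109 and ZS97 for the main probe set of each gene on the log2 scale, as levels at D0 to D3 (left) and as changes from D0 at D1 to D3 (right). Points are IRAT109 minus ZS97, bars the 95% interval, and dotted lines 2-fold. GER4 was apart only in droughted leaves (3.39 to 3.77), GER5 only at D0 (-2.17), and GER7 most at D1 (1.65).

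GER8 was lower under drought by less than 2-fold. Its main probe set read 26.1 and 43.9 at D0, 17.9 and 16.4 at D1, 16.4 and 15.9 at D2, and 16.1 and 16.9 at D3 in IRAT109. ZS97 gave 36.4 and 39.6 at D0, 19.0 and 16.5 at D1, 14.4 and 16.3 at D2, and 14.2 and 15.0 at D3. Each D0 array was above each droughted array in both varieties.

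The mean change of GER8 was -0.62 ± 0.10 in IRAT109 (adjusted p = 0.000135) and -0.76 ± 0.10 in ZS97 (adjusted p = 2.39e-05). The IRAT109 value was -0.88 without replicate 1 of D0 and -0.37 without replicate 2, the higher of that pair. The changes differed by 0.14 ± 0.14, with a 95% interval of -0.16 to 0.43 (adjusted p = 0.551). The other probe sets of GER8 did not give 1 answer. The first, over the same transcript, gave -0.57 and -0.47 (adjusted p = 0.000129 and 0.000703), and the second gave -0.21 and -0.12 (adjusted p = 0.0417 and 0.249). The ZS97 value of the first was -0.29 without replicate 1 of D0 and -0.65 without replicate 2. For the second, the IRAT109 value was -0.07 without replicate 2 of D0 and no longer passed (adjusted p = 0.597). All 3 carry the name endings by which the array's maker marks probes that can match more than 1 transcript, so the signal may not come from GER8 alone.

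GER1, GER2 and GER3, the neighbours on chromosome 8, were dim on all 16 arrays. GER1 read 4.7 to 6.3, GER2 6.8 to 11.1 and GER3 8.0 to 14.9. GER2 passed the adjusted p with a mean change of 0.13 in ZS97 (0.0472) and with levels -0.17 and -0.17 apart between the varieties at D1 and D3 (0.0468 and 0.0382), all far under 2-fold. No call was made for these 3 genes in any of the 22 comparisons. Signals this low do not show whether the genes were silent in the flag leaf or were read poorly by their probes.

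The chromosome 8 cluster held both dim and responding genes. The annotated block that starts with GER3 and ends with GLP2, another germin-like gene, holds 10 genes, of which 5 had a probe set with 1 gene. The locus directly before LOC4344846 in the block is also named GLP2 and had no such probe set. GLP2 (LOC4344846) was the only other germin-like gene found by name that had a probe set, and it had 2. The first read 190.3 and 210.5 at D0, 31.3 and 38.8 at D1, 18.1 and 21.9 at D2, and 12.1 and 11.8 at D3 in IRAT109, and 56.0 and 67.4, 10.9 and 12.2, 7.5 and 10, and 10.5 and 9.1 in ZS97.

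That probe set of GLP2 fell in both varieties, with mean changes of -2.54 ± 0.08 in IRAT109 (adjusted p = 1.64e-11) and -1.58 ± 0.08 in ZS97 (adjusted p = 1.78e-09). Its change in IRAT109 was 0.97 ± 0.11 further down (adjusted p = 2.71e-05, under 2-fold), the opposite sign to GER5, GER6 and GER7. At D3 this difference was -1.36 ± 0.13 and was called (adjusted p = 1.21e-05). The level of GLP2 at D0 was higher in IRAT109 by 1.48 ± 0.09 (adjusted p = 5.72e-08). The ZS97 signal from D1 on was at the dim end, which limits how far it could fall. The other GLP2 probe set read 12.1 to 20.6, with mean changes of -0.03 and -0.13 that did not pass the test, so the 2 probe sets disagree.

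The germin genes were set beside other genes that make or remove hydrogen peroxide, found by symbol, and counted for the mean of D1 to D3 against D0 unless a stage is named. The share of all probe sets called for that mean was 2.97% higher and 4.07% lower in IRAT109, and 3.32% and 3.54% in ZS97. Among 6 probe sets of superoxide dismutases, which turn superoxide into hydrogen peroxide, 2 rose and 1 fell in IRAT109, and none rose and 1 fell in ZS97. SODCC.1, a cytosolic copper and zinc enzyme, fell in both, with mean changes of -1.58 in IRAT109 and -1.52 in ZS97. SODCC.2, the other of that kind, rose by 1.30 in IRAT109 and was 0.78 higher in ZS97, under 2-fold, where it rose by 1.05 at D3. The plastid form sodCp rose by 1.01 in IRAT109, just over 2-fold, and was 0.28 higher in ZS97.

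The NADPH oxidase OsrbohB, which makes superoxide at the plasma membrane, had mean changes of -0.08 ± 0.05 in IRAT109 (adjusted p = 0.239) and -0.94 ± 0.05 in ZS97 (adjusted p = 4.54e-09), under 2-fold. At D2 alone it fell in ZS97, with a change of -1.18 ± 0.06 (adjusted p = 4.68e-09). Its level was called higher in IRAT109 by 1.28, 1.58 and 1.49 at D1, D2 and D3. The change in IRAT109 was 0.85 ± 0.07 above that in ZS97 (adjusted p = 1.86e-06). None of 3 probe sets of class III peroxidases, the wall enzymes that use hydrogen peroxide, was called in either variety. The PRX74 probe set read 4.9 to 8.1 and a PRX112 probe set 5.3 to 8.4, too dim to show a change. Only the other PRX112 probe set, at 141.1 to 367.9, was above the dim range, so the family was hardly read.

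Of the enzymes that remove hydrogen peroxide, none of 8 catalase probe sets rose, 3 fell in IRAT109 and 1 in ZS97. By stage the count of catalase probe sets that fell was 1, 3 and 3 in IRAT109 and 1, 0 and 3 in ZS97 at D1, D2 and D3. The share of all probe sets called lower at these stages was 3.38%, 4.33% and 4.78% in IRAT109. In ZS97 it was 2.97%, 3.73% and 4.16%. The 3 called for the mean were probe sets of catA, and the one with the largest change had mean changes of -2.19 in IRAT109 and -1.23 in ZS97. Of 10 probe sets of ascorbate peroxidases none rose, 3 fell in IRAT109 and 2 in ZS97. By stage 3 fell at each in IRAT109, and 3, 2 and 3 in ZS97, where 1 rose at D3. The share of all probe sets called higher in ZS97 at D3 is not given here, so that 1 is description only. An APX2 probe set fell in both, with mean changes of -3.75 and -2.13 and a called difference between the varieties of -1.62 ± 0.10 (adjusted p = 9.68e-08). APX4 fell by 1.29 in ZS97 and had -0.94 in IRAT109, and APX7 fell by 1.03 in IRAT109 and had -0.79 in ZS97. A further APX2 probe set fell in IRAT109 with -1.06 and had -0.86 in ZS97. The APX2 probe set that rose in ZS97 at D3, by 1.16, was outside the rule for naming and was chosen after its values were seen. Its mean changes were 0.30 and 0.83, so the probe sets of that gene disagree.

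**Figure D4:**
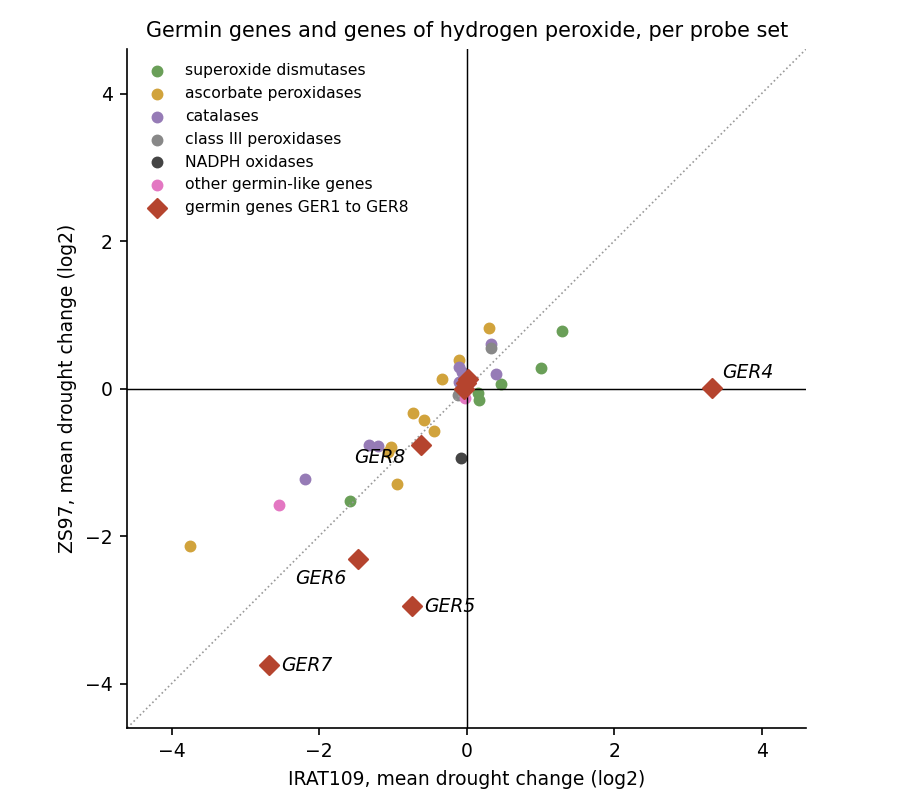
Mean change of D1 to D3 against D0 in IRAT109 (x axis) and in ZS97 (y axis), in log2, for each probe set of the germin genes (diamonds, main probe sets) and of the hydrogen peroxide lists (points). The dotted line marks equal change. GER5, GER6 and GER7 lie below it with more negative changes in ZS97 (-2.95, -2.31 and -3.74), while GER4 lies alone at 3.33 in IRAT109. The GER5 change in IRAT109 (-0.75) was not called, and the dim droughted signal of GER5 bounds its change in both varieties.

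Among themselves GER5, GER6, GER7 and GER8 made a loose group, though GER8 had no call and is given by its main probe set only. Over the 8 group means, Pearson's r of the log2 levels was 0.97 between GER6 and GER7, 0.97 between GER6 and GER8, and 0.92 between GER7 and GER8. GER5 followed them less closely, with r of 0.85 to GER6, 0.87 to GER8 and 0.74 to GER7. GER4 was apart, with r of -0.38 to -0.09 to these 4 genes. The 8 points are the same groups in each case and share the drop from D0 to D1, so the values describe likeness only.

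Named genes with the pattern most like each called member were sought among 2418 probe sets by Pearson's r over the 8 group means, and are given with no test since likeness chose them. For GER4 they were SAT1, a serine acetyltransferase of cysteine synthesis, the chitinase Cht4 and the floral MADS-box gene MADS16, also named AP3, each with r of 0.98. SAT1 had a group mean of 29.8 at D0 and 818.9 at D3 in IRAT109 and 11.0 to 14.4 in ZS97. Cht4 had 85.4 and 1674 in IRAT109 and 11.2 to 25.9 in ZS97. MADS16 had 289.9 at D0 and 716.5 at D3 in IRAT109, and 219.5 to 293.6 in ZS97, so that unlike GER4 it was well above the dim range in both varieties.

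MADS16 is also 1 of 6 probe sets listed as markers of panicle or pollen, tissue close to the flag leaf at booting. It was the only 1 of the 6 called in IRAT109, with a mean change of 1.20, and none was called in ZS97. The share of all probe sets called for the mean was 2.97% higher and 4.07% lower in IRAT109, and 3.32% and 3.54% in ZS97. The summed signal of the list was 2234 to 2467 at D0 and 1931 to 2343 at D1 to D3 in IRAT109, and 1718 to 1937 in ZS97, while the tapetum genes RTS and C6 stayed dim. The root marker Lsi1 read 210 to 254 at D0 and 112 to 169 under drought in IRAT109, and 385 to 405 and 177 to 221 in ZS97, with no call. The part of other tissues in the GER4 signal was not tested.

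For GER5 the most alike were CH6, the jasmonate repressor JAZ4 and the beta-glucosidase BGLU12, each with r of 0.98 but with smaller changes. BGLU12 had group means of 4.5 to 8.95, in the range where values carry little order. JAZ4 had a group mean of 1025 at D0 and 547.2 to 573.5 at D1 to D3 in ZS97, and 683.8 at D0 and 517.2 to 590 at D1 to D3 in IRAT109. For GER6 they were KRP1, an inhibitor of cyclin-dependent kinases, the iron transporter IRT1 and the phytic acid gene Lpa1, each with r of 0.99. IRT1 went from 188.1 at D0 to 43.9 at D1 and 21.1 at D3 in IRAT109, and from 311.6 to 15.2 and 17.2 in ZS97.

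For GER7 they were the jasmonate repressor JAZ7, the D-type cyclin CYCD5-2 and the cytochrome P450 CYP71Z7, each with r of 0.99. CYP71Z7 went from 549.5 at D0 to 182.4, 139.8 and 88.5 in IRAT109 and from 551 to 70.5, 51.4 and 34 in ZS97. JAZ7 went from 5683 to 1471 in IRAT109 and from 4311 to 1041 in ZS97 at D3. The group means of all 3 at D1 were lower in ZS97 than in IRAT109, as for GER7, an order that the choice by likeness favours. JAZ7 was lower in ZS97 at D0 as well (4311 against 5683), where GER7 did not differ detectably.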

How the data were processed

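Flag leaves of IRAT109 and ZS97 at D0 to D3 were hybridized to 16 arrays, 2 biological replicates per group. The authors deposited intensity values already summarized to probe sets and scaled. The labels name MAS5 and the methods the robust multiarray average, and which one made the values is not settled here. No raw scans were used, so background correction was not repeated. No array holds counts, and the number of arrays limits the precision.

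Log2(intensity + 16) of 57381 probe sets (123 of them controls) was fitted with 8 group means in limma 3.58.1 (R 4.3.3, two-sided tests), with 8 residual and 4.28 prior degrees of freedom. The residual SD had a median of 0.083. The methods' rank products were not run, since differences between the varieties had to be tested in 1 model. Probe sets were named through GEO's platform annotation and RefSeq loci (22436 had 1 gene, 95 several, 34850 none), and none of the latter groups was used as a member. A gene's main probe set is the one with the highest mean intensity. Members of the hydrogen peroxide lists were named where called for the mean change, at most 4 per list by size, and OsrbohB as the only member of its list. For each called member the 3 most alike named probe sets were taken. The members and lists were chosen with earlier results of these data known. The calculation was tested on simulated data. Alternatives were a constant of 1 or 64, quantile normalization, median centring, a minimum signal, a replicate block, an unadjusted p under 0.01, a 1.5-fold limit, an intensity trend, 1 variety alone, and leaving out each array. No nucleotide or protein sequence was used here.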

Additional observations from a re-analysis of the deposited data

Results flagged for a closer look

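A few results were singled out because the drought change differed between IRAT109 and ZS97 by the test of the difference itself (adjusted p under 0.05 and over 2-fold). For GER4 the change in IRAT109 exceeded that in ZS97 by 3.14 at D1, 3.32 at D2, 3.52 at D3 and 3.33 for the mean. The ZS97 signal of GER4 was dim on every array. A sequence difference under its probes cannot be told apart from a difference in RNA. For GER5 the excess was 2.16, 2.23, 2.22 and 2.20, where both changes were negative. The droughted GER5 arrays of both varieties were below 16, which bounds both changes, and the level of IRAT109 minus ZS97 was already -2.17 at D0. A differing response to drought cannot be told apart from this difference at D0. For GER7 the excess was 1.53 at D1 and 1.06 for the mean, again between negative changes. Groups of 2 arrays are too small for a search for single outlying arrays.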

How the results depend on the processing

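Of 39 called member changes, recomputed under 27 alternative settings (999 values), 990 kept their call, 9 lost it and none reversed. The 1.5-fold limit and the unadjusted p under 0.01 reuse the main fit and could not lose any of these calls, so their values add no support. The losses were those of GER6 in IRAT109 with a constant of 64 (-0.86, -0.97, -0.99 and -0.94 for D1, D2, D3 and the mean) and of the GER7 difference between the varieties (0.99 at D1 and 0.59 for the mean with a constant of 64, and 0.86 to 0.97 for the mean without 1 of 3 arrays). Among counts of called members, a 1.5-fold limit moved IRAT109 from 3 to 5 at D1 and D2 and for the mean, and to 6 at D3, and the IRAT109 steps from 0 to 1 each. It moved the differences between the varieties at D2 and D3 from 2 to 4 and the differences in level at D2 and D3 from 1 to 2. A constant of 1 gave 5 in IRAT109 at D2 and D3, 4 for the differences in change at D2 and D3, and 2 for the levels at D2 and D3. Leaving out 1 array gave 1 to 2 for the level at D2, 3 to 4 for IRAT109 at each stage and for the mean, and for the differences in change 3 to 4 (D1), 2 to 3 (D2) and 2 to 3 (mean). A minimum group mean of 64 removed 6 of the 10 member probe sets, and fits of 1 variety alone give no difference between the varieties, so these have no value there. The share of all probe sets called under each alternative setting is not given, so these counts describe the rule and not the germin genes. A 1.5-fold limit can only add calls. The cause of the other shifts was not tested.

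Replicates with the same number did not deviate together: over 28 pairs of groups r was -0.41 to 0.26 (median 0.00), over 0.1 in 4. They share only a number. With the replicate block, IRAT109, ZS97 and the difference between them kept 3 called members each for the mean change, GER4 stayed at 3.33 and no call changed. Of uncalled values, the second further probe set of GER8 in IRAT109 went from an adjusted p of 0.0417 to 0.0516 and the GER7 difference between the varieties at D3 from 0.0442 to 0.0566.

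With 2 arrays a group, the spread is borrowed from all groups and probe sets, and small differences are not detectable. Signals under about 16 carry little order, which covers GER1, GER2 and GER3, GER4 in ZS97 and in IRAT109 at D0, GER5 under drought, GER8 on 4 droughted arrays and GER7 on 1 array of ZS97 at D3.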
